A study of Mus musculus with 6 samples.

Results

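Expression of 10 necroptosis and pyroptosis genes was examined in colon tumors of Tmem173fl/fl and Tmem173iΔmye mice. The genes were Zbp1, Ripk1, Ripk3, Mlkl and Casp8 of the necroptosis pathway, and Aim2, Pycard, Casp1, Casp4 and Gsdmd of the pyroptosis pathway. They were taken by symbol from the 54532 genes of the deposited table, from a list drawn up with earlier results of these data known, and all 10 were found once and were among the 16426 genes that passed the filter on low expression (a mean of at least 0.5 FPKM over the 6 tumors). Tumors were induced by azoxymethane (AOM), a carcinogen, followed by 3 cycles of dextran sodium sulfate (DSS), which injures the colon epithelium. RNA-seq profiled 3 tumor samples of Tmem173fl/fl mice, whose floxed alleles of Tmem173 (STING) stay intact for want of a recombinase. The other 3 samples came from Tmem173iΔmye mice, which add to the floxed alleles Lyz2-Creert2 (spelled Lzym-Creert2 in the series description). Each sample is called a tumor here. Tamoxifen (TAM) was given to both groups once the AOM/DSS cycles had been completed, and all lines were on the C57BL/6N background. The study's methods give ages at TAM treatment without tying one to these tumors. Lyz2 drives the recombinase in myeloid cells, whereas the RNA came from whole tumor, so that tumor epithelium and stroma of both groups still carried Tmem173. The labels name 3 samples per group. They do not say whether a library held 1 tumor or several of a mouse, or whether each sample came from a different mouse. The p-values thus measure the spread between these libraries.

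Necroptosis and pyroptosis are forms of lytic cell death. In necroptosis, the kinases RIPK1 and RIPK3 meet through their RHIM motifs, or ZBP1 engages RIPK3 after sensing Z-form nucleic acid, and RIPK3 then phosphorylates MLKL, which permeabilizes the plasma membrane. Caspase-8 cleaves RIPK1 and RIPK3 and thereby restrains this route. In pyroptosis, a sensor such as AIM2, which binds cytosolic double-stranded DNA, recruits the adaptor ASC (encoded by Pycard) and caspase-1, while mouse caspase-11 (encoded by Casp4) responds directly to cytosolic lipopolysaccharide. Both caspases cleave gasdermin D, whose N-terminal part forms membrane pores through which IL-1β leaves the cell. In the intestine, both routes are active in epithelial cells as well as in myeloid cells. They are controlled in large part at the protein level, by cleavage and phosphorylation, which RNA-seq does not measure.

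The reads counted on genes came to 15329810 to 16533732 per tumor. No gene had an adjusted p under 0.05 in edgeR after Benjamini-Hochberg correction of its quasi-likelihood p-values (0% of 16426), the smallest adjusted p was 0.742, and 1008 genes (6.14%) had an unadjusted p under 0.05. DESeq2 called 28 genes at an adjusted p under 0.05, of which 0 were members. Tmem173 itself had a log2 fold change of 0.0015 for Tmem173iΔmye over Tmem173fl/fl (SE 0.24) and overlapped between the groups, so its level in whole tumor does not check the genotype labels. Tmem173iΔmye replicate 1 stood apart in interferon response genes, whose list was made with their pattern in these tumors already known. This tumor had the highest level of the 6 for 21 of these 22 genes, against 24.9% of all genes tested (26.6% were highest in Tmem173fl/fl replicate 2). Their summed level in this tumor was 3073 CPM against 567 to 1133 CPM in the other 5 tumors. Its neutrophil markers summed to 395 CPM against 70.9 to 216 CPM in the other 5 tumors, with 6 of 7 markers highest there. Of this sum, 117.5 and 137.7 CPM came from S100a8 and S100a9. Ly6g, the exception, had 62.7 CPM there against 102 and 87.3 CPM in Tmem173fl/fl replicates 1 and 3. S100a8, S100a9 and Ly6g were chosen to be named after their values were seen. Reads of 4 Y-linked genes were abundant (2655 to 3547 counts) in 1 Tmem173fl/fl tumor, replicate 1, and in a pair of Tmem173iΔmye tumors, replicates 1 and 2, whereas the other tumors had at most 2. Epithelial markers were present in every tumor, with a summed level of 11600 to 12700 CPM in Tmem173fl/fl and 12200 to 13800 CPM in Tmem173iΔmye tumors, and macrophage markers summed to 297 to 397 and 316 to 469 CPM. The 8 dendritic cell markers reached only 20.2 to 44.4 CPM in sum, and 2 of them passed the filter. The 9 T and NK cell markers summed to 10.3 to 32.2 CPM, the 6 B and plasma cell markers to 83.1 to 384 CPM, the 7 fibroblast and muscle markers to 1400 to 1980 CPM, and the 4 endothelial markers to 81.9 to 105 CPM. Tmem173iΔmye replicate 1 also had the highest sums of macrophage, T and NK cell, B and plasma cell and epithelial markers. Dendritic cell, fibroblast and muscle, and endothelial markers had their highest sums in other tumors. In whole tumor RNA, fewer cells of a type and less RNA per cell cannot be told apart.

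The question asked of the 10 genes was whether their RNA levels differed between tumors with and without myeloid STING deletion after tumor formation. Zbp1 had the largest difference, a level 2.62-fold higher in Tmem173iΔmye tumors at an unadjusted p of 0.0425 from edgeR, but its adjusted p was 0.742. Mlkl was 1.56-fold and Casp8 1.27-fold higher on average, without passing the test, and Ripk1, Casp4 and Aim2 were closest to equal or slightly lower (0.969-, 0.966- and 0.901-fold). In total, log2 fold changes were positive for 7 of the 10 genes, and their median was 0.28 against -0.0042 for all genes tested. At an unadjusted p under 0.05, 1 member was higher, where 3.23% of all genes tested were higher, and 0 members were lower, where 2.9% were. Zbp1 was also the 1 member that additionally had a log2 fold change of at least 1, as did 1.26% of all genes in the same direction. Without Tmem173iΔmye replicate 1, 0 members passed beside 3.5% of all genes, 5 of 10 had a log2 fold change above 0, and their median was -0.022 against -0.017 for all genes. Likewise, 0 members passed without Tmem173fl/fl replicate 2 or replicate 3, where 6.5% and 3.26% of all genes did. Without Tmem173fl/fl replicate 1, 2 passed (Zbp1 and Pycard), beside 10.1% of all genes. Without Tmem173iΔmye replicate 2, 3 passed (Zbp1, Ripk3 and Mlkl), beside 4.83%, and without Tmem173iΔmye replicate 3, 2 passed (Zbp1 and Casp8), beside 5.63%.

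**Figure D1:**
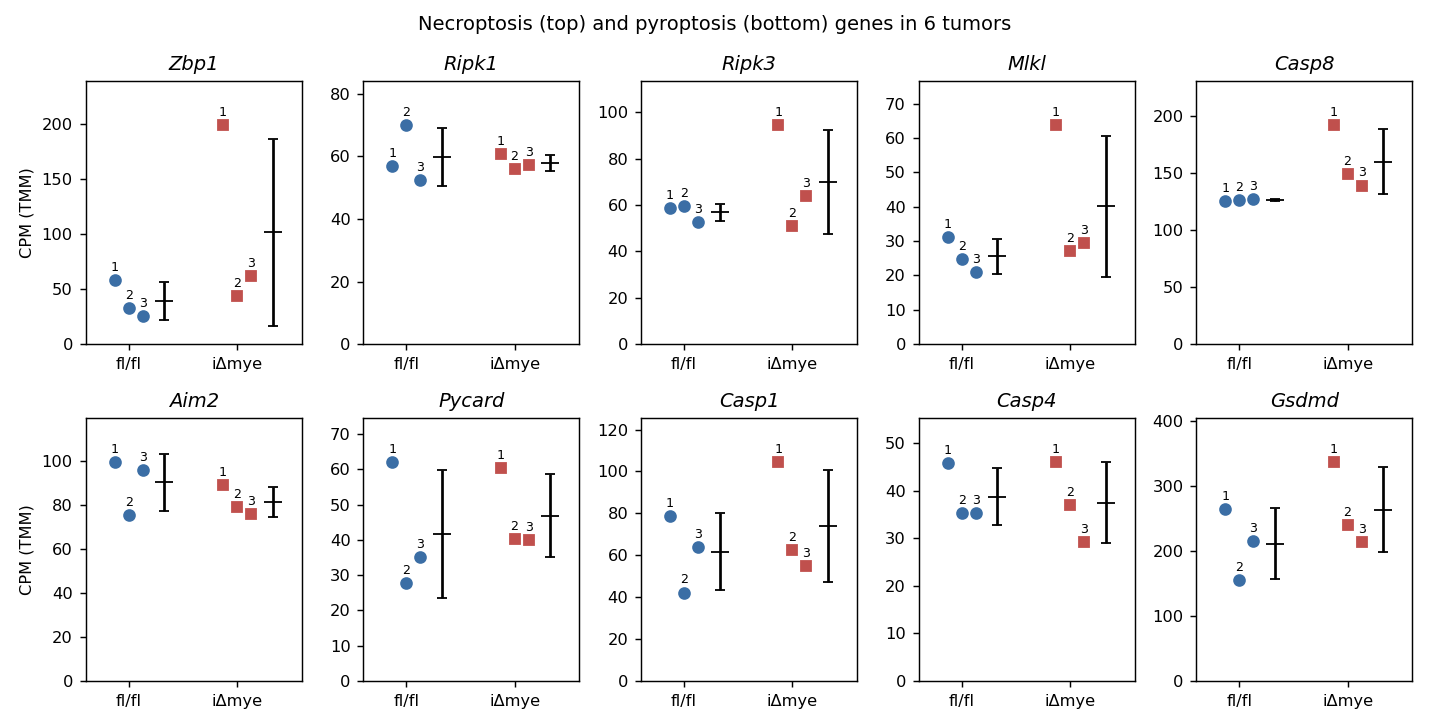
Levels of the 10 genes in each tumor in CPM (counts scaled to the library size after TMM normalization, linear axes from 0), with the replicate number at each point and the mean ± SD of each group (n = 3) in black beside the points. Tmem173iΔmye replicate 1 was the highest point for 7 genes, and Casp8 was the 1 gene whose groups did not overlap.

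Levels were compared between genes as FPKM, which divides counts by gene length. Gsdmd, the pore-forming executioner of pyroptosis, had the highest level of the 10 genes, at 99.2 ± 25.3 FPKM (mean ± SD, n = 6 tumors), and was above Casp8, the next gene, in 6 of 6 tumors. Casp8 followed at 49.2 ± 8.93 FPKM and Casp1 at 45.0 ± 14.4 FPKM, with Casp8 above Casp1 in 4 of 6 tumors. Casp1 was above Ripk3 in 6 of 6 tumors. Ripk3 at 27.5 ± 7 FPKM and Aim2 at 24.4 ± 2.88 FPKM swapped order between tumors, with Ripk3 above Aim2 in 3 of 6. Aim2 was above Zbp1 in 5 of 6 tumors. Zbp1 (19.8 ± 18.3 FPKM), Mlkl (14.2 ± 6.75 FPKM), Pycard (11.6 ± 3.62 FPKM) and Casp4 (10.2 ± 1.76 FPKM) followed in this order. Zbp1 was above Mlkl, Mlkl above Pycard and Pycard above Casp4 in 4 of 6 tumors each, and Casp4 was above Ripk1 in 6 of 6. Ripk1 had the lowest level, at 7.01 ± 0.759 FPKM. The ranges of neighbouring genes overlapped at every step of this order. Zbp1 had the widest range of the 10 genes in proportion to its level, from 7.22 FPKM in Tmem173fl/fl replicate 3 to 56.2 FPKM in Tmem173iΔmye replicate 1.

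**Figure D2:**
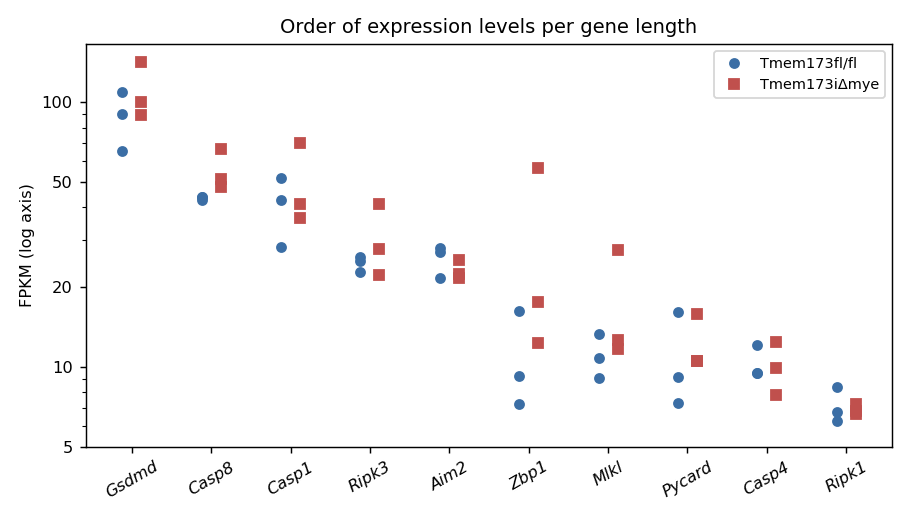
FPKM of the 10 genes in the 6 tumors on a log axis, ordered by their mean, with circles for Tmem173fl/fl and squares for Tmem173iΔmye tumors. Mean levels ran from 99.2 FPKM for Gsdmd to 7.01 FPKM for Ripk1, and the isolated square of Zbp1 at 56.2 FPKM is Tmem173iΔmye replicate 1.

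Among the necroptosis genes, Zbp1, the sensor (ENSMUSG00000027514, GRCm38 chr2:173206612-173218923, minus strand), had 58.3, 32.5 and 25.6 CPM in the Tmem173fl/fl tumors and 199, 43.8 and 62.1 CPM in the Tmem173iΔmye tumors, given here and hereafter in the order of replicates 1, 2 and 3. One Tmem173iΔmye tumor thus lay far above the other 5, at 4.47 times their mean, and the groups overlapped, since Tmem173fl/fl replicate 1 exceeded Tmem173iΔmye replicate 2. These levels came from 427 to 3150 counts, and the group means were 38.8 ± 17.2 and 102 ± 84.8 CPM (SD, n = 3). Its log2 fold change was 1.39 (SE 0.57, 95% interval 0.06 to 2.71). Without Tmem173iΔmye replicate 1 it was 0.45 (1.36-fold), at an unadjusted p of 0.246 from edgeR. The unadjusted p was also above 0.05 without Tmem173fl/fl replicate 2 (0.123 from edgeR, log2 fold change 1.28) and without Tmem173fl/fl replicate 3 (0.127 from edgeR, log2 fold change 1.17), and it was 0.0708 from edgeR when the fit took account of Y-linked reads. The sum of the interferon response genes was highest in the same tumor. So were the sums of neutrophil, macrophage, T and NK cell, B and plasma cell and epithelial markers. Their part in the result was not tested.

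Ripk1, which encodes the kinase that assembles death complexes downstream of TNF receptors (ENSMUSG00000021408, GRCm38 chr13:34002363-34037147, plus strand), was nearly level across the tumors. It had 57.0, 70.0 and 52.3 CPM in the Tmem173fl/fl and 60.7, 55.9 and 57.1 CPM in the Tmem173iΔmye tumors. All 3 Tmem173iΔmye values lay within the range of the Tmem173fl/fl tumors, and the highest tumor was 1.34 times the lowest. Its log2 fold change was -0.046 (SE 0.14, 95% interval -0.38 to 0.29). Exons of Ripk1 share 241 bases (2.89% of its exon length) with Serpinb6a on the opposite strand. Reads in these bases cannot be assigned where counting ignores strand, which the sources used here do not state. The exons also share 511 bases (6.12%) with Gm17084, a processed pseudogene on the same strand, which had 0 counts. Strand cannot assign reads in those bases.

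Ripk3, encoding the kinase that both Ripk1 and Zbp1 products engage (ENSMUSG00000022221, GRCm38 chr14:55784995-55788865, minus strand), had 58.6, 59.5 and 52.6 CPM in the Tmem173fl/fl and 94.6, 51.1 and 64.0 CPM in the Tmem173iΔmye tumors. The Tmem173fl/fl tumors were close together, and the Tmem173iΔmye tumors held both the highest and the lowest of the 6 values. Its log2 fold change was 0.30 (SE 0.22, 95% interval -0.21 to 0.81), and 0.014 without Tmem173iΔmye replicate 1.

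Mlkl, the executioner of necroptosis (ENSMUSG00000012519, GRCm38 chr8:111311797-111338177, minus strand), had 31.1, 24.8 and 21.1 CPM in the Tmem173fl/fl and 63.8, 27.1 and 29.4 CPM in the Tmem173iΔmye tumors. Tmem173iΔmye replicates 2 and 3 lay between Tmem173fl/fl replicates 1 and 2, and replicate 1 was 2.39 times the mean of the other 5 tumors. The difference amounted to 0.64 on the log2 scale (SE 0.34, 95% interval -0.15 to 1.43) with an unadjusted p of 0.0973 from edgeR, and to 0.13 without that tumor.

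Casp8, encoding the protease that restrains necroptosis and starts extrinsic apoptosis (ENSMUSG00000026029, GRCm38 chr1:58795374-58847503, plus strand), had 125.5, 125.9 and 127.1 CPM in the Tmem173fl/fl tumors, which were almost identical, and 192, 149 and 139 CPM in the Tmem173iΔmye tumors, all of which were higher. It was the 1 of 10 members whose groups did not overlap in this direction, where 6.03% of all genes tested had all Tmem173iΔmye tumors above all Tmem173fl/fl tumors, and 0 of 10 members lay wholly below, where 6.47% did. Groups of 2 and 3 tumors separate more often. Without Tmem173fl/fl replicate 1, 4 members did not overlap in either direction (Zbp1, Mlkl, Casp8 and Pycard), as did 31.2% of all genes tested, against 12.5% with all tumors. The number was 2 without Tmem173fl/fl replicate 2 (Casp8 and Aim2), where 25.2% of all genes did not overlap, and 3 without Tmem173iΔmye replicate 2 (Zbp1, Ripk3 and Casp8), where 20.7% did not. The group means of Casp8 were 126 ± 0.857 and 160 ± 28.3 CPM (SD, n = 3), with a log2 fold change of 0.34 (SE 0.15, 95% interval -0.0024 to 0.69) and an unadjusted p of 0.0513 from edgeR. Without Tmem173iΔmye replicate 1 the groups of Casp8 still did not overlap, as was the case for 18.7% of all genes, and the log2 fold change was 0.19 with an unadjusted p of 0.173 from edgeR.

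The promoters of the necroptosis members that the RefSeq table holds were set side by side. The table (GRCm38.p6, 250 bases before to 50 bases from each start) held 10 promoters of 8 of the 10 members. Zbp1 and Gsdmd had no entry. Both strands were searched for the core of the interferon-stimulated response element (GAAANNGAAA) and for the gamma-activated sequence (TTCNNNGAA). They occurred in 3.43% and 8.29% of 32817 promoters. Among the members, matches were found in 1 promoter, the second start of Ripk1 (chr13:34002624-34002923, plus strand), with the first base of the interferon element 5 bases before the start and gamma-activated sequences 108 and 11 bases before it. The latter of these overlaps the interferon element. The promoters of Casp8 (chr1:58802252-58802551, plus strand), Mlkl (chr8:111338156-111338455, minus strand) and Ripk3 (chr14:55788808-55789107, minus strand) held neither motif in this window. The sequences follow 5′ to 3′, with the matches in capitals.
Ripk1, second start: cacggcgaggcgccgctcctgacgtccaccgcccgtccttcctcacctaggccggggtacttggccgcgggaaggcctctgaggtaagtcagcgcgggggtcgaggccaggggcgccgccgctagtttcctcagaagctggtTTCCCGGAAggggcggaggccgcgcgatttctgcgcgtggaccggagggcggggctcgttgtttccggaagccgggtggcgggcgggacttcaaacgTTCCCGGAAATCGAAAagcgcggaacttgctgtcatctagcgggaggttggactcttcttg
Casp8: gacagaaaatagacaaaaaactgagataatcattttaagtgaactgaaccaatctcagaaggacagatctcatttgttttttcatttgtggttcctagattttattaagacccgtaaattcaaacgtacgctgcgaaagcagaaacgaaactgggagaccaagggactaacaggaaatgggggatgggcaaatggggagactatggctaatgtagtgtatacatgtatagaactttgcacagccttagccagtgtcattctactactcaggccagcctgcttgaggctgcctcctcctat
Mlkl: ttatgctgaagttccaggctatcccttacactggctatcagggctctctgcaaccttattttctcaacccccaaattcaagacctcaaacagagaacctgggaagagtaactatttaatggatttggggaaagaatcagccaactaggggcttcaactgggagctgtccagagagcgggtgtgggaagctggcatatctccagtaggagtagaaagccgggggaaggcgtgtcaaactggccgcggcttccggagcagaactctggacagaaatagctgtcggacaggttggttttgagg
Ripk3: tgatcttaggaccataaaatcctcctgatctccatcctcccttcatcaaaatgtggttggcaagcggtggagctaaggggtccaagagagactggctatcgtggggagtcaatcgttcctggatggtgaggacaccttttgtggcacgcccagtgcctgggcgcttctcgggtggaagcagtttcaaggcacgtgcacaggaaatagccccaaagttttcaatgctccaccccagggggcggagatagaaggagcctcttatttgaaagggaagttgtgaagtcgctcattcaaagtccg
Across the tumors, the SD on the log2 scale was 0.14 for Ripk1, 0.54 for Mlkl, 0.32 for Ripk3 and 0.24 for Casp8. The first start of Ripk1 held no match. Nor did the promoters of Aim2, Casp4, Pycard and Casp1, with SDs of 0.17, 0.25, 0.44 and 0.44. Zbp1, the most variable member, had no entry. Whether motifs and spread go together was not tested. A match describes letters in this window and says nothing of binding.

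Among the pyroptosis genes, Aim2, the DNA sensor (ENSMUSG00000037860, GRCm38 chr1:173350879-173466040, plus strand), had 99.8, 75.6 and 95.9 CPM in the Tmem173fl/fl and 89.1, 79.2 and 76.1 CPM in the Tmem173iΔmye tumors. The highest tumor was 1.32 times the lowest, the smallest ratio of the 10 genes. All 3 Tmem173iΔmye values lay within the Tmem173fl/fl range, and the log2 fold change was -0.15 (SE 0.15, 95% interval -0.49 to 0.19).

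Pycard, encoding the adaptor ASC (ENSMUSG00000030793, GRCm38 chr7:127989708-127993867, minus strand), had 62.2, 27.7 and 35.1 CPM in the Tmem173fl/fl and 60.4, 40.1 and 40.0 CPM in the Tmem173iΔmye tumors. Replicate 1 was the highest in both groups, and the Tmem173iΔmye values lay inside the Tmem173fl/fl range. The log2 fold change of 0.17 (SE 0.31, 95% interval -0.56 to 0.90) became -0.058 without Tmem173iΔmye replicate 1 and -0.053 without Tmem173fl/fl replicate 2. Its exons share 485 bases (12.8%) with Gm45205 on the opposite strand, which had 22 counts over the 6 tumors.

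Casp1, encoding the inflammasome protease (ENSMUSG00000025888, GRCm38 chr9:5298517-5307265, plus strand), had 78.8, 42.2 and 64.0 CPM in the Tmem173fl/fl and 105, 62.3 and 54.9 CPM in the Tmem173iΔmye tumors. The groups overlapped, with Tmem173iΔmye replicates 2 and 3 below 2 of the 3 Tmem173fl/fl tumors. Its log2 fold change was 0.26 (SE 0.30, 95% interval -0.43 to 0.96), and -0.078 without Tmem173iΔmye replicate 1. Casp4, its neighbour on the chromosome, which encodes caspase-11 (ENSMUSG00000033538, GRCm38 chr9:5308828-5336783, plus strand), had 45.7, 35.2 and 35.3 CPM in the Tmem173fl/fl and 46.1, 37.1 and 29.1 CPM in the Tmem173iΔmye tumors. Each group of Casp4 held 1 tumor near 46 CPM and a pair of lower ones, and its log2 fold change was -0.050 (SE 0.20, 95% interval -0.52 to 0.42).

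Gsdmd (ENSMUSG00000022575, GRCm38 chr15:75862327-75867408, plus strand) had 264, 155 and 215 CPM in the Tmem173fl/fl and 337, 239.9 and 213 CPM in the Tmem173iΔmye tumors. One Tmem173iΔmye tumor lay above the Tmem173fl/fl range, the other two lay between Tmem173fl/fl values or just below the middle one, and the log2 fold change was 0.32 (SE 0.24, 95% interval -0.24 to 0.88), or 0.097 without Tmem173iΔmye replicate 1. None of the pyroptosis genes had an unadjusted p under 0.05 in edgeR; the smallest was 0.226, for Gsdmd.

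**Figure D3:**
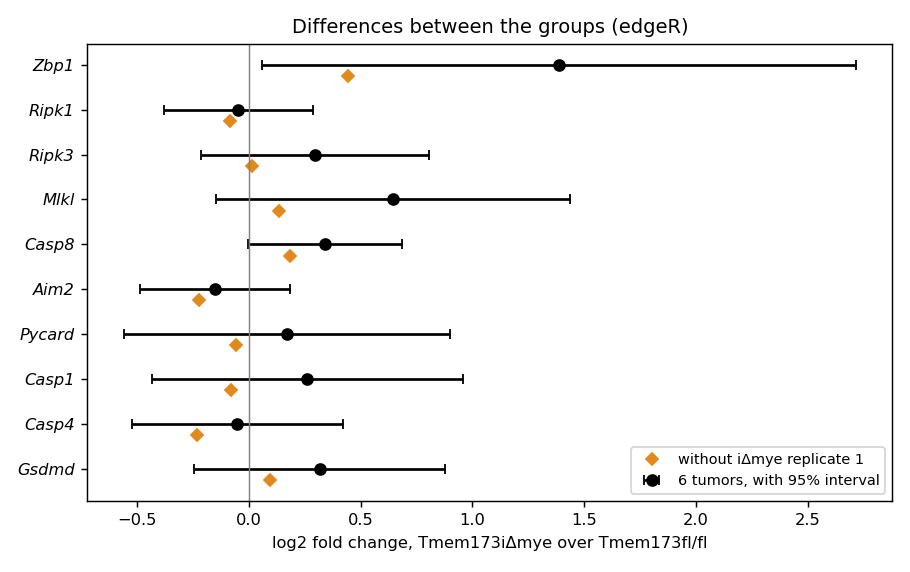
Log2 fold change of each gene for Tmem173iΔmye over Tmem173fl/fl, with its 95% interval from edgeR (circles and bars, 3 tumors per group) and the value without Tmem173iΔmye replicate 1 (diamonds). The interval of Zbp1, from 0.06 to 2.71, was the 1 interval that did not reach 0, and all 10 diamonds lie to the left of their circles.

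The 10 genes varied among tumors to different degrees. The SD of log2(CPM + 1) over the 6 tumors was 1.02 for Zbp1, above that of 98.5% of all genes tested, and 0.54 for Mlkl, above that of 90.5%. Ripk1 (0.14) and Aim2 (0.17) were at the other end, with 17% and 27.5% of genes below them, and the median over all genes was 0.24. Without Tmem173iΔmye replicate 1, the SD was 0.53 for Zbp1 and 0.21 for Mlkl, against a median of 0.22 over all genes. Summed over the pathway, the necroptosis genes reached 330.5, 313 and 279 CPM in the Tmem173fl/fl and 610.1, 327 and 351 CPM in the Tmem173iΔmye tumors, so that 1 tumor was set off from 5 similar ones. The sum of the pyroptosis genes was 550.2, 336 and 445 CPM in the Tmem173fl/fl and 637, 459 and 413 CPM in the Tmem173iΔmye tumors, where Tmem173fl/fl replicate 1 was the second highest. A total of 7 members were highest in Tmem173iΔmye replicate 1 (70%, where 24.9% of all genes tested were). The exceptions were Ripk1, which was highest in Tmem173fl/fl replicate 2, and Aim2 and Pycard, which were highest in Tmem173fl/fl replicate 1. For Casp4, Tmem173iΔmye replicate 1 led only by 46.1 against 45.7 CPM in Tmem173fl/fl replicate 1.

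Likeness of pattern was measured as the root mean square difference between 2 genes in log2(CPM + 1), each centred on its mean over the 6 tumors. Within the 10 genes, Casp1 and Gsdmd had the most similar pattern (0.10), followed by Aim2 with Casp4 and by Pycard with Gsdmd (both 0.17), and Ripk3 with Casp8 (0.17). Casp1, Gsdmd and Pycard were all lowest in Tmem173fl/fl replicate 2. The nearest member to Zbp1 was Mlkl, at 0.45. Outside the 10 genes, and among genes with a mean of at least 1 FPKM, those close to Zbp1 over the 6 tumors included Batf2 (0.082), Irgm1 (0.14), Ifi47 (0.18) and Cd74 (0.18). Batf2 encodes a basic leucine zipper transcription factor, Irgm1 and Ifi47 encode interferon-inducible GTPases, and Cd74 encodes the invariant chain of MHC class II. Irgm1 also stands in the list of interferon response genes used further on. Batf2, the closest, had 23.2, 14.5 and 11.9 CPM in the Tmem173fl/fl and 85.3, 19.5 and 28.4 CPM in the Tmem173iΔmye tumors. As with Zbp1, Tmem173iΔmye replicate 1 was far above the others, and the log2 fold changes of these genes (1.38 to 1.43) lay between 0.31 and 0.53 without it. The likeness describes 6 tumors of which 1 dominates each profile.

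**Figure D4:**
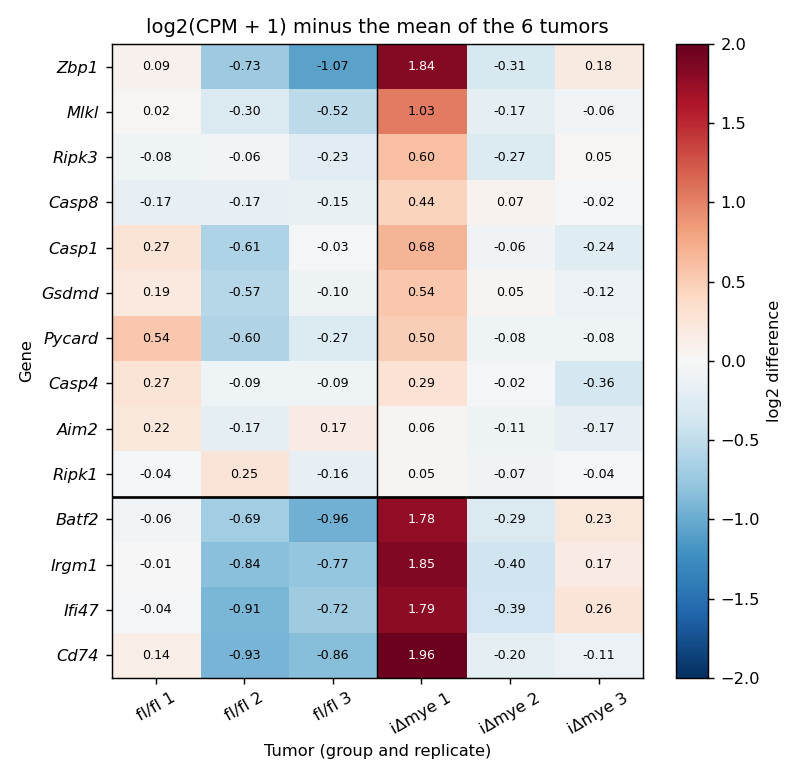
Log2(CPM + 1) of the 10 genes (above the line) and of Batf2, Irgm1, Ifi47 and Cd74, which were close in pattern to Zbp1 (below it), in each of the 6 tumors, minus the gene's mean over the tumors. Tmem173iΔmye replicate 1 is above the mean for every gene shown, by 1.84 for Zbp1, whereas Ripk1 and Aim2 differ from their means by at most 0.25 in any tumor.

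The partners of the 10 genes were described from lists of pathway genes. Of the 25 genes of death receptor complexes, which hold TNF family ligands, their receptors and the adaptors, ubiquitin ligases and deubiquitinases around RIPK1, 24 were tested. None had an unadjusted p under 0.05 in edgeR, 13 had a log2 fold change above 0, and the median was 0.011. The lowest p-values of this list belonged to Birc3, a ubiquitin ligase of RIPK1 (log2 fold change -0.30), to Cyld, a deubiquitinase (-0.21), and to Map3k7, encoding the kinase TAK1 (-0.24). Of 11 inflammasome sensors, 10 were tested and 0 had an unadjusted p under 0.05, with a median log2 fold change of 0.11. The 3 lowest p-values there were those of Nlrp1b (0.39), Naip5 (0.26) and Naip6 (-0.22, all as log2 fold changes). Naip5 and Naip6 are closely related paralogs that detect flagellin, so how reads were divided between them is uncertain.

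Of the other gasdermins and the cargo of their pores, 14 genes in all, 11 were tested and 1, Il1b, had an unadjusted p under 0.05 (0.0219 from edgeR). The list had a median log2 fold change of 0.32. Il1b, the cytokine that caspase-1 matures, had 20.8, 18.7 and 16.6 CPM in the Tmem173fl/fl and 110.0, 32.6 and 22.4 CPM in the Tmem173iΔmye tumors. All Tmem173iΔmye tumors were above all Tmem173fl/fl tumors, with replicate 1 far above the rest, and the log2 fold change was 1.56 (SE 0.54) with all tumors and 0.56 without it. The unadjusted p of Il1b was 0.0641 from edgeR without Tmem173fl/fl replicate 2 and 0.0667 from edgeR without Tmem173fl/fl replicate 3. Il18, the other cytokine matured by caspase-1, was added after its values were seen. It had 63.3, 25.5 and 47.2 CPM in the Tmem173fl/fl and 43.6, 60.7 and 50.1 CPM in the Tmem173iΔmye tumors, with overlapping groups and a log2 fold change of 0.18 (SE 0.31). Gsdma and Gsdmc4, the other genes of this list with the lowest p-values, had log2 fold changes of -0.46 and 0.76 and did not pass with all tumors. Gsdma was at -0.15 without Tmem173fl/fl replicate 2 and at -0.25 without Tmem173iΔmye replicate 1. Gsdmc4 was at 1.15 without Tmem173iΔmye replicate 1 and at 1.34 without Tmem173fl/fl replicate 1, with unadjusted p-values of 0.0284 and 0.0385 from edgeR, and at 0.50, 0.40 and 0.58 without Tmem173fl/fl replicate 2, Tmem173iΔmye replicate 3 and Tmem173fl/fl replicate 3.

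Interferon response genes were examined because Zbp1 is an interferon-inducible gene, and the list was made with their pattern in these tumors already known. All 22 were tested and all 22 were above 0 in log2 fold change, with a median of 1.55, and 19 had an unadjusted p under 0.05, all higher in Tmem173iΔmye tumors, beside 3.23% of all genes tested. Irgm2, Ifit3 and Usp18 had the lowest p-values, with log2 fold changes of 1.59, 2.13 and 1.01. Each had an adjusted p of 0.742 from edgeR. From DESeq2, their adjusted p-values were 0.000755, 0.00484 and 0.111. The number at an unadjusted p under 0.05 was 5 without Tmem173iΔmye replicate 1, 9 without Tmem173fl/fl replicate 2 and 7 without Tmem173fl/fl replicate 3. Side by side with Zbp1, Irgm2 had 50, 41.1 and 40.4 CPM in the Tmem173fl/fl and 198, 83.4 and 115 CPM in the Tmem173iΔmye tumors. The groups of Irgm2 did not overlap, unlike those of Zbp1, and without Tmem173iΔmye replicate 1 its log2 fold change was 1.18, against 0.45 for Zbp1.

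**Figure D5:**
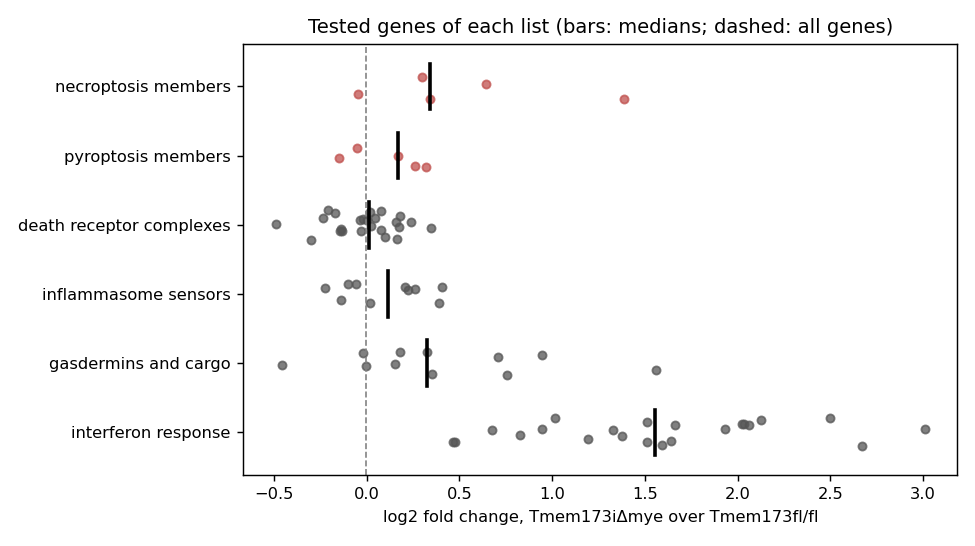
Log2 fold change for Tmem173iΔmye over Tmem173fl/fl of each tested gene in 6 lists, with a bar at each list's median and a dashed line at the median of all genes tested (-0.0042); vertical scatter within a list only separates the points. Necroptosis and pyroptosis genes (medians 0.34 and 0.17) run from -0.15 for Aim2 to 0.64 for Mlkl and 1.39 for Zbp1, and the interferon response genes from 0.47 to 3.01.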

How the data were processed

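Total RNA of 6 tumor samples was sequenced as polyA RNA. Per the labels, the submitters' processing notes name CASAVA 1.8, fastp, HISAT2 2.0.5, featureCounts 1.5.0-p3, DESeq2 1.20.0 and the build GRCm38 (mm10). The authors deposited read counts per gene and FPKM values made from them in 1 table, together with fold changes and p-values of their own comparison, which were not used. Reads counted on genes ranged from 15329810 to 16533732 per tumor. Counting intervals were not computed, and the spread between tumors, counting noise included, served as the error. Sample columns left unused numbered 0.

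After a filter at a mean of 0.5 FPKM, counts of 16426 genes entered the quasi-likelihood test of edgeR 4.0.16 under R 4.3.3. Libraries were scaled by TMM, genotype was the single term, and p-values were adjusted by Benjamini-Hochberg over all genes tested. The SE was obtained by dividing the absolute log2 fold change by the root of its F statistic, and intervals are 95% intervals. CPM are TMM-normalized, and fold changes are Tmem173iΔmye over Tmem173fl/fl. The scripts were tested on simulated data. Alternatives were median-of-ratios scaling, library sizes without the 20 highest genes, other filters, DESeq2 1.42.0, limma 3.58.1 (voom, and log2(FPKM + 1) or log2(FPKM + 0.1)), the replicate number as a block, a covariate for Y-linked reads, and leaving out each tumor.

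The members and gene lists were chosen with earlier results of these data known. Genes named are all members, the up to 3 lowest p-values of each pathway list, the 5 nearest in pattern to the member with the lowest p (1 of which is not reported here), Tmem173, and those marked as chosen after their values were seen. Promoters are from RefSeq (GRCm38.p6) and exon overlaps from GENCODE M21.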

Additional observations from a re-analysis of the deposited data

How the results depend on the processing

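Of 160 log2 fold changes of the members under 16 alternatives, 154 kept their direction and 6 reversed, all 6 on leaving out a tumor: Ripk1 was 0.083 and Pycard -0.053 without Tmem173fl/fl replicate 2, Pycard -0.058 and Casp1 -0.078 without Tmem173iΔmye replicate 1, and Casp4 0.085 without Tmem173fl/fl replicate 1 and 0.10 without Tmem173iΔmye replicate 3. Without single tumors, Pycard ranged from -0.058 to 0.58, Casp1 from -0.078 to 0.48, Casp4 from -0.23 to 0.10 and Ripk1 from -0.13 to 0.083. Members at an adjusted p under 0.05 numbered 0 under every alternative run. At an unadjusted p under 0.05, 1 member passed with all tumors, 3 with no filter on low values (Zbp1, Mlkl and Casp8), 0 with DESeq2, voom, limma on log2(FPKM + 1), limma on log2(FPKM + 0.1) or the Y-linked covariate, and 0 to 3 without single tumors. Of all genes tested, 6.14% passed in the main fit, 5.63% with no filter, 6.66% with DESeq2 and 5.67% with voom. The share was 5.69% and 5.6% with the limma fits on FPKM, 3.37% with the covariate and 3.26% to 10.1% without single tumors. Members without overlap numbered 1 to 4 without single tumors, where 18.7% to 31.2% of all genes did not overlap in either direction, against 12.5% with all tumors. Zbp1 had its lowest log2 fold change, 0.45, without Tmem173iΔmye replicate 1 and its highest, 1.80, without Tmem173fl/fl replicate 1, and its adjusted p ranged from 0.373 to 1 over the edgeR, DESeq2 and limma alternatives.

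Genes with an unadjusted p under 0.05 numbered 1741 of 30939 with no filter (5.63%), against 1008 of 16426 (6.14%) in the main fit. They numbered 553 with the Y-linked covariate (3.37%) and 535 to 1665 without single tumors (3.26% to 10.1%). At an adjusted p under 0.05, 6 genes passed with no filter, 28 with DESeq2 and 0 to 1 without single tumors, against 0. Of the pathway genes, 23 had an unadjusted p under 0.05, and 13 did with voom, 12 with either limma fit on FPKM, 14 with the Y-linked covariate and 9 to 29 without single tumors. Interferon response genes numbered 19, against 11 with voom, 10 with either limma fit on FPKM, 12 with the covariate and 5 to 21 without single tumors, and the other pathway genes 4, against 7 with no filter, 2 with voom, either limma fit or the covariate and 1 to 9 without single tumors. The log2 fold change of Tmem173 was -0.0059 with median-of-ratios scaling and with DESeq2, -0.017 without the 20 highest genes and -0.17 to 0.34 without single tumors. The cause of these differences was not tested. Counting noise and the spread among the 3 tumors per group were not separated.

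With the replicate block, 2 members had an unadjusted p under 0.05, as did 9.16% of all genes. Zbp1 had a log2 fold change of 1.17, with an unadjusted p of 0.0027 and an adjusted p of 0.373 from edgeR. Mlkl had a log2 fold change of 0.55, with an unadjusted p of 0.0319 and an adjusted p of 0.501 from edgeR. Correlations across genes of how tumors with the same number deviated from their groups were 0.31, 0.0085 and 0.15 for numbers 1, 2 and 3. Those of tumors with different numbers ran from -0.37 to 0.22. For Tmem173fl/fl replicates 1 and 3, the tumor with the same number correlated best. Whether the numbers pair the tumors cannot be told from these values, and the labels do not say, so the main fit left them out. Tmem173fl/fl replicate 2 correlated best with Tmem173iΔmye replicate 3 (0.22).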

Other observations

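Intrinsic apoptosis, the route through mitochondria that shares caspases with the genes above, was represented by 17 genes, all tested. At an unadjusted p under 0.05, 1 was higher (Bax) and 2 were lower (Apaf1 and Bcl2l11) in Tmem173iΔmye tumors, beside 3.23% and 2.9% of all genes tested, and each adjusted p was 0.742 from edgeR. Apaf1, which encodes the scaffold of the apoptosome, had 113, 144 and 127 CPM in the Tmem173fl/fl and 91.2, 95.2 and 85.6 CPM in the Tmem173iΔmye tumors. The groups of Apaf1 did not overlap, and its log2 fold change of -0.50 (SE 0.13, unadjusted p of 0.00563 from edgeR) stayed at an unadjusted p under 0.05 in 16 of 16 alternatives. Bax, which encodes a pore-forming protein of the mitochondrial outer membrane, had 64.4, 37.4 and 49.9 CPM in the Tmem173fl/fl and 99.1, 72.0 and 62.9 CPM in the Tmem173iΔmye tumors. Its groups overlapped slightly, and the log2 fold change was 0.63 (SE 0.24). Its unadjusted p of 0.0324 from edgeR was 0.0927 without Tmem173fl/fl replicate 2, 0.0769 without Tmem173fl/fl replicate 3 and 0.121 without Tmem173iΔmye replicate 1. Bcl2l11, which encodes the proapoptotic protein BIM, was lower by a log2 fold change of -0.51 (SE 0.22), at an unadjusted p of 0.0485 from edgeR, which held in 8 of 16 alternatives.

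Gasdermin C genes had the widest spread among the gasdermins that passed the filter on low expression, and were chosen after their values were seen. Gsdmc2 had 189.9, 29.6 and 105 CPM in the Tmem173fl/fl and 55.9, 273 and 295 CPM in the Tmem173iΔmye tumors. Gsdmc4 had 257, 92.9 and 114 CPM in the Tmem173fl/fl and 96.7, 312 and 376 CPM in the Tmem173iΔmye tumors. In both genes, Tmem173iΔmye replicate 1, the highest tumor for Gsdmd, was the lowest of its group, and Tmem173fl/fl replicate 2 was the lowest of all. These genes are close copies of each other, and how reads were divided between them is uncertain.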
